A study of Homo sapiens with 8 samples.

Results

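The peak lists of the 300 mM and 500 mM NaCl washes of an anion exchange separation of open chromatin were compared, to describe which accessible regions were lost, kept or new between these neighbouring salt steps. The lists, called G300 and G500 after the molarity of NaCl, held 19717 and 10384 peaks. Any G300 and G500 peaks with 1 bp or more in common were joined, which gave 21427 regions. The regions of all 8 lists of the series together number 36845. A region called only in G300 was named lost, one called in both lists kept, and one called only in G500 new. These names describe calls in 2 lists and not the presence or absence of DNA. Positions are in the human build hg19, counted from 1, and genes at the regions were not analysed here.

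The material was from 293T cells, an established line from human embryonic kidney in which the SV40 large T antigen is expressed. Cells were crosslinked, permeabilised and tagmented, and the mixture was held on Q Sepharose, from which a flow-through (FT) and washes of 20, 100, 200, 300, 500, 700 and 1000 mM NaCl were taken in succession. The cells of all groups had the same genotype and no other treatment as far as the labels tell. Each wash gave 1 library, so no difference between G300 and G500 has a replicate check, no p-value is given, and the intervals below cover counting error only. The wash step, the library and its depth therefore cannot be told apart.

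ATAC-seq uses a hyperactive transposase, Tn5, that cuts and tags DNA where nucleosomes and other proteins leave it exposed, chiefly at promoters, enhancers and insulator sites. Q Sepharose carries positive charges and binds negatively charged material such as DNA and acidic protein complexes. Chloride ions compete for those charges, so material that is held more tightly leaves at a higher salt concentration. In crosslinked cells the proteins bound to a tagged fragment stay attached, and a salt step can therefore part fragments by the charge of the whole complex.

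The pair was chosen because the number of peaks falls sharply from 300 to 500 mM, so that fall is not a finding. FT and the 20, 100 and 200 mM lists held 22807, 19484, 13244 and 15988 peaks. The 700 and 1000 mM lists held 8102 and 10246. By a shared base, most regions of the 500 mM list were also in the 300 mM list. There were 11069 lost, 8643 kept and 1715 new regions. The lost regions were 56.2% of the G300 regions (95% Clopper-Pearson interval 55.5 to 56.8). The new regions were 16.6% of the G500 regions (15.8 to 17.3), and the kept regions were 43.8% of the G300 and 83.4% of the G500 regions. Where summits within 100 bp were required in place of a shared base, 4835 regions were kept and 5549 were new, so most G500 regions then had no partner. Lost regions outnumbered new ones 6.45 to 1, an excess that the lengths of the lists set. In covered sequence the lost regions came to 5.05 Mb, the kept to 6.23 Mb and the new to 0.653 Mb.

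The depth of the 2 lists differed in the same direction. The reads at each summit and the background were recovered from the deposited fold enrichments and p-values. The genome background was 1.73 reads per kb in G300 and 0.972 in G500, which is 0.562 times as deep. The lowest −log10 p in the list was 3.68 in G300 and 3.99 in G500. The recovered fragment extension was 287 bp in both. The narrowest peak was 288 bp wide in G300 and 284 bp in G500. The background of the other 6 libraries ranged from 0.817 to 2.36 reads per kb. The part of depth in the loss of regions was not tested by any sequenced replicate, and the next comparisons give the values that bear on it.

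The lists were also compared at equal length, which makes the numbers of lost and new regions nearly equal by construction, so that only the size of the unshared share is informative. From G300 only the 10384 peaks ranked first by −log10 q were taken, which is the length of the G500 list. The last peak inside the limit and the first outside both had a −log10 q of 5.49, while the G500 list still reached down to 1.31. With these lists 3355 regions were lost, 7028 kept and 3330 new. The lost share was then 32.3% of the G300 regions (31.4 to 33.2) and the new share 32.1% of the G500 regions (31.2 to 33.1).

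Lost and new regions were the weaker and narrower ones. Kept regions had a median of 19 reads at the G300 summit and a median −log10 q of 10.1, against 9 reads and 4.15 in lost regions. On the G500 side kept regions had a median of 11 reads and new regions 7. The median width was 687 bp for kept, 409 bp for lost and 354 bp for new regions. A kept region spans the joined peaks of both lists, so its width is raised by construction. Where a kept region joined a single peak of each list, the median peak width was 629 bp in G300 and 479 bp in G500. Lost regions were narrower than the former and new regions narrower than the latter. At equal list length the median widths were 710 bp for kept, 485 bp for lost and 369 bp for new regions, with kept regions again joined. The medians were then 21 G300 reads in kept against 14 in lost regions.

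The chance that a G300 region was also called in G500 rose steeply with its reads. Of the G300 regions with 4 to 5 reads, 2.76% were kept (1.88 to 3.89), and of those with 8 to 9 reads 19.3% (17.9 to 20.8). At 13 to 15 reads the share was 47.9% (46.0 to 49.9), at 21 to 30 reads 85.3% (83.8 to 86.7) and at 31 to 50 reads 95.6% (94.3 to 96.7). Going the other way, 37.8% of the G500 regions with 4 to 5 reads were in G300 (34.4 to 41.4), 92.8% of those with 10 to 12 reads (91.7 to 93.9) and 99.6% of those with 21 to 30 reads (98.8 to 99.9). A G500 region of 10 to 12 reads was rarely without a G300 call, while a G300 region of the same number of reads often had no G500 call. The background of G500 was 0.562 times that of G300, so equal read numbers do not mean equal strength. The part of depth in this asymmetry was not tested.

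**Figure D1:**
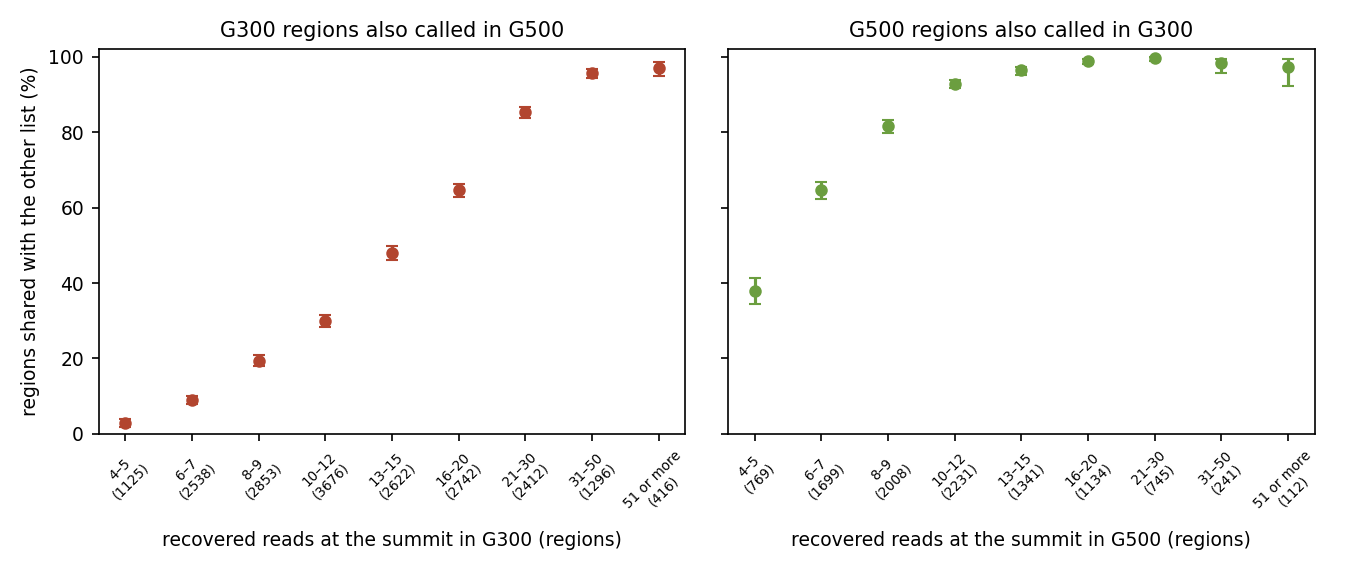
Share of regions shared with the other list (%, vertical axis) by the recovered reads at the summit (horizontal axis, with the number of regions in brackets), for G300 on the left and G500 on the right. Points are shares and bars 95% Clopper-Pearson intervals; the G300 shares climb from 2.76% to 97.1%, and the G500 shares start at 37.8% and are 92.8% or more from 10 reads on.

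Width went with retention as well. Among G300 regions of 13 to 20 reads, 33.7% of those up to 400 bp wide were kept (30.7 to 36.8), against 72.1% of those over 700 bp (69.7 to 74.4). The median was 15 reads in the narrow and 16 in the wide regions. Over all reads, 83.9% of the G300 regions up to 400 bp were lost and 12.99% of those over 1000 and up to 1500 bp. Of the 59 G300 regions wider than 1500 bp, 3 were lost. In G500, 0 of the 207 regions of over 1000 and up to 1500 bp were new, which allows a share of up to 1.77%.

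The G300 values were also brought to the depth of G500 by arithmetic. Each G300 peak's reads and local background were multiplied by 0.562 and its −log10 p computed anew. Then 16108 peaks reached 3.99, the lowest −log10 p of the G500 list, and 3577 did not. Peaks that did not reach it were kept in 10.4% of cases (9.39 to 11.4), and those that reached it in 51.3% (50.6 to 52.1). Of the 11044 lost peaks with recovered reads, 7838 (71.0%) were in the group that reached it. The calculation takes the G300 reads as exact, although a peak called in G300 may owe part of its reads to counting error, and it ignores peak width.

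The 6 lists that played no part in the definition showed the same grading. Kept regions were also called by FT (94.9%), G20 (92.5%), G100 (82.2%), G200 (83.5%), G700 (62.8%) and G1000 (72.8%). Lost regions were called there in 55.6%, 47.8%, 29.8%, 35.5%, 14.4% and 20.5%, in the same order of lists. New regions were called in 47.7%, 38.8%, 21.1%, 27.2%, 9.74% and 13.1%. Of the kept regions 4225 (48.9%) were called in all 6 of these lists, of the lost 456 (4.12%) and of the new 23 (1.34%). By contrast, 28.1% of the lost (27.2 to 28.9) and 32.9% of the new regions (30.7 to 35.2) were in none of them, against 1.15% of the kept (0.932 to 1.39).

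**Figure D2:**
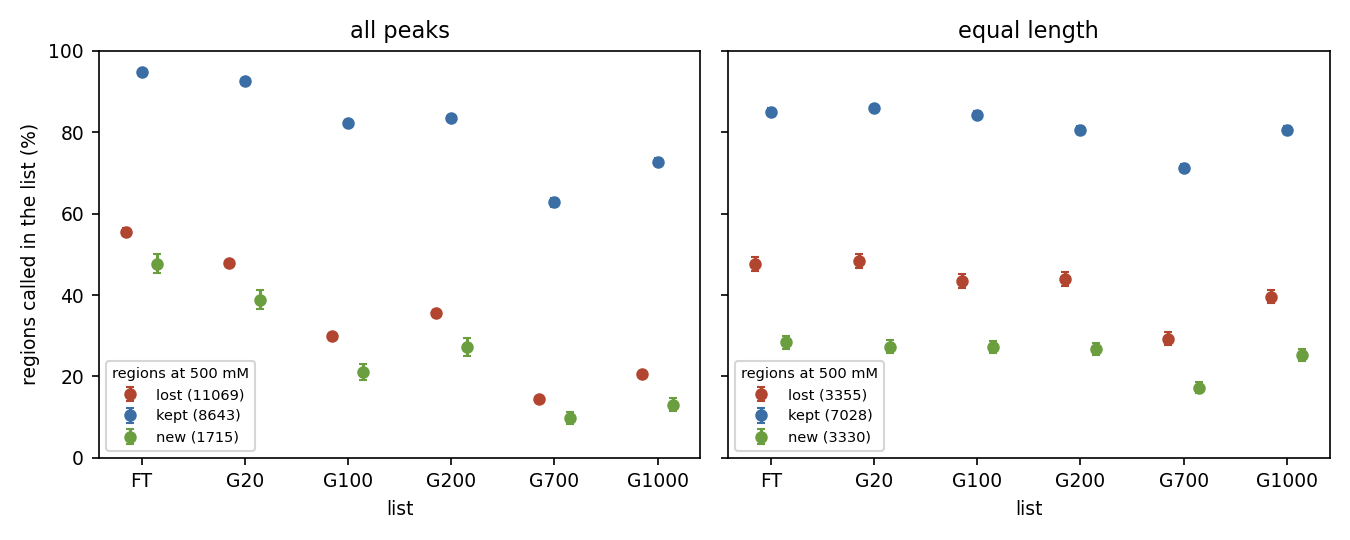
Share of lost, kept and new regions called in each of the other 6 lists (%, vertical axis), with all peaks on the left and with every list cut to at most 10384 peaks on the right. Points are shares with 95% Clopper-Pearson intervals; kept regions lie highest in each list (62.8% to 94.9% on the left), and lost regions lie above new ones in each list and both panels.

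Lost regions did not all stay out of the lists above 500 mM. G700 or G1000 called 3104 of the lost regions (28.04%) and both of them called 755 (6.82%), although those libraries had backgrounds of 0.917 and 1.03 reads per kb, close to that of G500. At equal list length 52.1% of the lost regions (50.4 to 53.8) were called in G700 or G1000, against 88.3% of the kept and 34.4% of the new regions. The pattern of a region that is called in FT, G20, G100 and G200, and in neither G700 nor G1000, was found in 495 lost regions (4.47%). It was found in 458 kept regions (5.30%).

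Kept and lost regions also differed in the other lists at similar G300 reads. A kept region also needed a call in G500, so within a range of G300 reads the class itself selects for strength. Whether the difference goes beyond that selection was not tested. Of regions with 16 to 20 reads in G300, the 972 lost ones were called in FT in 85.9% (83.6 to 88.0), in G100 in 57.9% (54.7 to 61.0), in G700 in 34.3% (31.3 to 37.3) and in G1000 in 44.0% (40.9 to 47.2). The 1770 kept ones were called in 97.2% (96.3 to 97.9), 85.1% (83.3 to 86.7), 60.2% (57.8 to 62.5) and 73.8% (71.7 to 75.9). The lost regions of this range had a median of 17 reads and a G300 peak of 526 bp, and the kept ones 18 reads and 626 bp. The intervals of the 2 classes did not overlap in any of the 6 lists in this range of reads. They did not overlap at 8 to 9 reads or at 21 to 30 reads either.

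Regions were also chosen from the other 6 lists alone, so that their choice used no G300 or G500 value. There were 4695 regions called in all 6 with recovered reads in each. Of these, 4208 were called in both G300 and G500, 453 only in G300, 22 only in G500 and 12 in neither. They were split into 5 groups by their reads summed over the 6 libraries. In the weakest group, with 37 to 83 reads, G300 called 97.5% and G500 73.8%. In the strongest, with at least 163 reads, the shares were 99.9% and 99.2%. The read ratios that follow cover only regions called in both G300 and G500, and so depend on those calls, most of all in the weakest group. The ratio of summed G500 to G300 reads was 0.617 in the weakest group (95% interval 0.599 to 0.636), 0.567 in the middle group (0.555 to 0.580) and 0.584 in the strongest (0.577 to 0.593). The genome backgrounds stood at a ratio of 0.562.

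The reads over kept regions were compared between the washes. Of the 8643 kept regions, 8595 had recovered reads in both lists. The 8364 ordinary ones among them, which lie on chromosomes 1 to 22 and X away from chromosome ends and from the longest peak-free stretch, summed to 184806 reads in G300 and 110595 in G500, a ratio of 0.598. Scaled by this ratio, the G500 reads of a region were 1.02 times those of G300 in the median. A median near 1 follows from the scaling, which used these same regions. The middle 90% of regions lay between 0.620 and 1.67 times. The spread over the ordinary regions was 0.832 times that of counting error in a binomial model, so the intervals of single regions are approximate. This spread leaves out regions called in only 1 list, so it does not measure agreement over all regions.

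Past a 2-fold change of scaled reads there were 189 kept regions higher in G500 (2.2% of 8595) and 77 lower (0.896%), together 3.09%. With the ratio of the genome backgrounds as the scale, the counts were 308 higher and 42 lower. The 95% interval of the ratio lay above 1 in 63 regions and below 1 in 49. By construction such an interval misses the true ratio in up to 5% of regions. Ratios depended on the strength of the region in G300, because a weak region had to be high in G500 to be kept. The 222 kept regions of 6 to 7 G300 reads had 1.72 times the scaled reads in G500, and the 1239 of 31 to 50 reads 0.897 times.

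**Figure D3:**
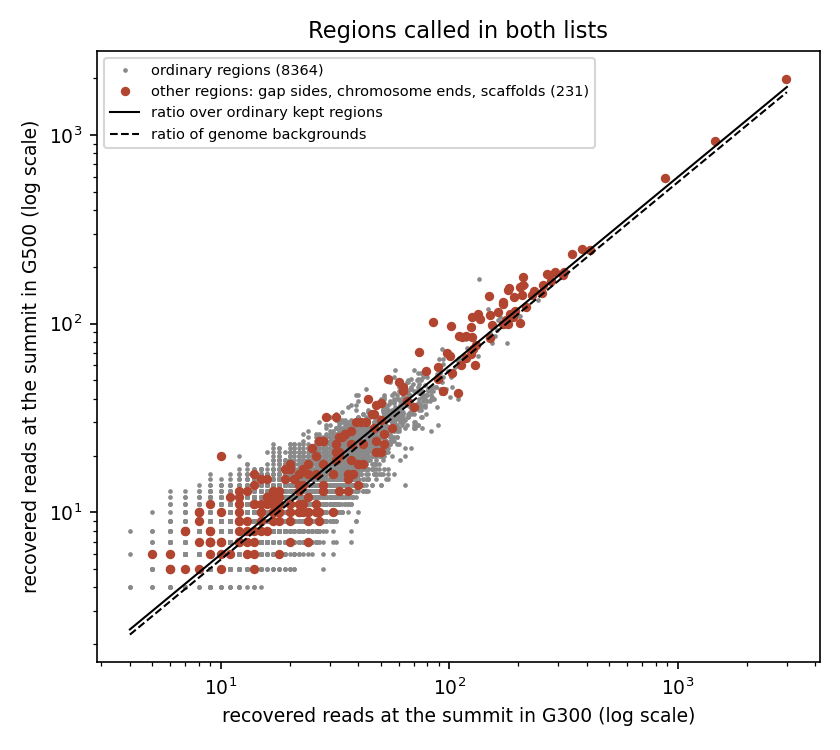
Recovered reads at the summit in G300 (horizontal, log scale) and G500 (vertical, log scale) for 8595 kept regions; grey points are ordinary regions and red points lie beside the longest peak-free stretches, at chromosome ends or on scaffolds. The solid line is the ratio over ordinary regions, 0.598, the dashed line that of the genome backgrounds, 0.562, and below about 10 G300 reads the points lie mostly above both lines, since a region had to be called in G500 to be plotted.

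Kept regions at chromosome ends, on scaffolds and beside the longest peak-free stretches, groups set by position with no repeat annotation, had higher scaled ratios than ordinary kept regions. Reads were summed within each group, so the intervals leave out the spread between regions. The groups were not matched for reads. The 12 kept regions of scaffold gl000220, which carries copies of the ribosomal RNA genes, had 1.22 times the scaled reads in G500 (1.14 to 1.30), from 2313 reads in G300 and 1686 in G500. The local background there can be high. The kept region of gl000220 from 105373 to 106907 had a fold over local background of 2.10 in G300 and 2.60 in G500. The median folds of the lists were 5.57 and 5.71. Summed reads in this group therefore hold background as well as peak signal. The 12 kept regions at chromosome ends had 1.36 times (1.20 to 1.55). An end here is the first 20 kb of a chromosome or the 20 kb up to its last peak in any list. The 142 beside the longest peak-free stretches had 1.06 times (1.03 to 1.09), and the 65 on other scaffolds, random sequences and Y 1.13 times (1.07 to 1.19). The peak-free stretches were set from the peaks alone and not compared with centromere positions. These ratios leave out the lost regions, and of the 69 lost regions with over 30 reads in G300, 11 lay beside the peak-free stretches and 12 on scaffolds, random sequences or Y. Over all reads, 50.3% of the 286 G300 regions beside these stretches were lost, against 56.4% of the 19276 ordinary ones. On other scaffolds, random sequences and Y 42.0% of 112 were lost, and on gl000220 20% of 15. Reads that map to several copies cannot be placed with certainty, and how they were handled is not given in the sources used here. The 3 lost regions of gl000220 included the stretch from 120214 to 120698. It had 157 reads in G300, at a fold of 2.06, 334 in FT, 160 in G20 and 67 in G700. It was called in neither G100, G200, G500 nor G1000.

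The 10 lost regions of highest −log10 q in G300 were well supported in the other lists. They were the same with all peaks and at equal list length by construction, since that cut keeps the G300 peaks of highest −log10 q. Lost regions with over 30 reads in G300 were less uniform. Of these 69, all 6 other lists called 22 and none called 4. On chromosome 1, the region from 235291956 to 235292551 had 51 reads and a −log10 q of 35.2 in G300, the highest of any lost region. From FT through G20 and G100 to G200 its reads were 36, 42, 22 and 13. It was not called in G500, and had 18 reads in G700 and 21 in G1000. Multiplied by the ratio of backgrounds, its G300 reads come to 28.7. It was called in every list other than G500, and the cause of the missing call was not tested.

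A second lost region on chromosome 16, from 77443251 to 77443685, had 34 reads in G300. Its reads from FT to G200 were 25, 29, 18 and 7, followed by 9 in G700 and 18 in G1000. One on chromosome 3, at 53925814 to 53926207, had 34 reads in G300, between 22 and 30 in FT, G20, G100 and G200, 13 in G700 and 15 in G1000. Both were called in every list other than G500, though their reads in G200 differed, with 7 on chromosome 16 and 30 on chromosome 3. Also on chromosome 3, the region from 158361962 to 158362607 had 32 reads in G300, 12 in G700 and 15 in G1000. The remaining 6 had 27 to 35 reads in G300. They were chr22:30987887-30988378, chr7:99698959-99699749, chr1:185226343-185226916, chr15:97839009-97839514, chr6:108582242-108582622 and chr9:95857750-95858819. All but the one on chromosome 15 were called in each of the other 6 lists, and that one was absent only from G700 among them.

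The 10 new regions of highest −log10 q were less uniform. The first, on chromosome 8 from 43827947 to 43828261, had 34 reads and a −log10 q of 16.5 in G500 and was called in no other list of the 8. The second, on chromosome 2 from 92309575 to 92310217 beside the longest peak-free stretch, had 74 reads in G500, 120 in FT, 63 in G100 and 54 in G1000, and no call in G20, G200, G300 or G700. The third, chr19:16606935-16607417, had 18 reads in G500. Its reads from FT to G200 were 24, 15, 16 and 24, and it had 12 in G700 and 10 in G1000. Another on chromosome 19, from 41903354 to 41903779, had 15 reads in G500 and between 4 and 21 in the other 6 lists. These last 2 were called in every list other than G300.

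The rest of the 10 were called in 1 to 5 of the other 6 lists. They were chr17:16438957-16439422 (15 G500 reads), chr2:238571346-238571709 (13), gl000224 from 7197 to 7592 (35), chr1:153631146-153631479 (17), chr16:67194558-67195054 (15) and chr3:125709161-125709523 (12). The region on chromosome 1 had 33 reads in FT and 28 in G20, and the one on gl000224 was otherwise called only in G200, with 13 reads. At equal list length 5 of these 10 gave way to regions that overlapped a G300 peak below the limit. One of them, on chromosome 1 from 32014698 to 32015103, had 16 reads in G500 and 9 in G300, with a G300 −log10 q of 3.67.

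**Figure D4:**
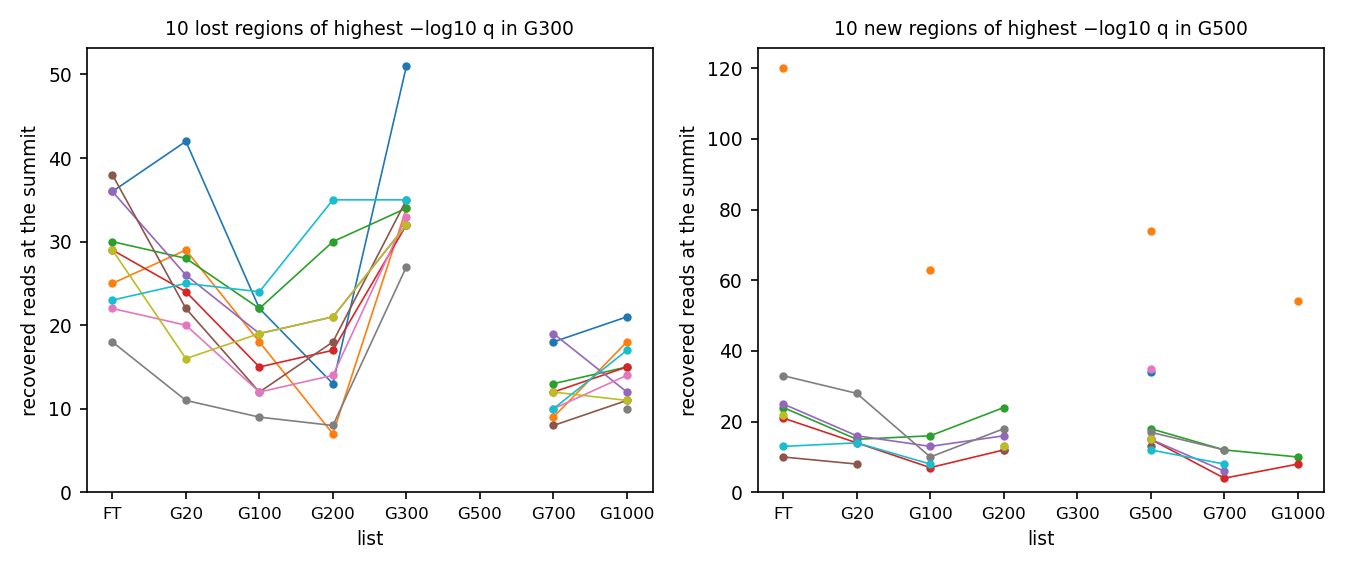
Recovered reads at the summit (vertical axis) in each of the 8 lists (horizontal axis) for the 10 lost and the 10 new regions of highest −log10 q; each line or colour is 1 region within a panel, and a missing point means no call in that list. The lost regions have 27 to 51 reads in G300 and calls again in G700 or G1000, and the highest new region by reads has 120 in FT.

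Among kept regions with at least 20 reads in both libraries together, the largest rise was on chromosome 19 from 23456660 to 23457196, with 10 reads in G300 and 20 in G500. That is 3.34 times after scaling (1.49 to 7.995). The next were on chromosome 7 from 79763750 to 79764097, with 7 and 13 reads (3.10 times, 1.15 to 9.19), and on chromosome 1 from 32014687 to 32015379, with 9 and 16 (2.97 times, 1.24 to 7.63). Chromosome 1 also held those from 28431486 to 28432066 (2.92 times) and from 194045342 to 194046231 (2.79 times). All 5 had G300 reads of 10 or fewer.

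The largest fall was on chromosome 6 from 47002382 to 47003042, with 28 reads in G300 and 5 in G500, or 0.298 times after scaling (0.0900 to 0.783). Its reads from FT to G200 were 23, 18, 14 and 8, and it had 9 in G1000 and no call in G700. The next, chr16:68482081-68482765, had 37 and 7 reads (0.316 times, 0.119 to 0.718), and 5 in G700 and 18 in G1000. The others were chr14:73392701-73393913 (0.323 times), chr16:23568438-23569101 (0.358 times) and chr1:202317383-202317910 (0.361 times).

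Regions of many reads gave tighter ratios, and the following 2 were chosen after their values were seen. Chromosome 1 from 566066 to 566755, a stretch of the assembly that resembles mitochondrial DNA, had 135 reads in G300 and 172 in G500, or 2.13 times after scaling (1.69 to 2.69). Its reads were 1042 in G200, 197 in G1000 and 92 to 148 in the other lists, so G500 was not the highest of the 8. Chromosome 12 from 113658647 to 113659269 had 64 reads in G300 and 14 in G500, or 0.366 times (0.189 to 0.659), with 23 in G700 and 39 in G1000.

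The kept regions were nearly all simple pairs, and their peaks were narrower at 500 mM. Of 8643, 8612 joined 1 peak of each list, 26 joined 1 G300 peak with several G500 peaks and 5 the reverse. In the simple pairs the G500 peak was narrower in 6589 (76.5%) and wider in 1991, and the median width went from 629 bp to 479 bp. The summits lay a median of 86 bp apart. They were within 100 bp in 4812 pairs (55.9%) and over 300 bp apart in 603 (7.002%).

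New regions lay close to other regions more often than kept ones did. Within 2000 bp of another region were 12.02% of the new (10.5 to 13.7), 7.52% of the lost (7.04 to 8.03) and 5.46% of the kept regions (4.99 to 5.96). Of the 206 new regions that did, 164 had a lost region as their nearest neighbour, 36 a kept one and 6 a new one. In those 164 places G300 and G500 each had a peak, side by side without a shared base. Lost regions were 51.7% of all 21427 regions. A lost region was also the nearest neighbour of 255 of the 472 kept and 410 of the 832 lost regions within this distance. The median gap of the 206 was 518 bp.

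Losses were found on every chromosome, with the lowest share on chromosome 19. Of its 796 G300 regions 42.8% were lost (39.4 to 46.4), and of its 502 G500 regions 9.36% were new (6.96 to 12.3). Its G300 regions had a median of 14 reads, against 10 to 14 on the other chromosomes. On chromosome 1, where the median was also 14, 51.6% were lost (49.4 to 53.8). The highest lost shares were 63.7% on chromosome 18 (58.0 to 69.1) and 63.5% on chromosome 13 (59.5 to 67.5), with medians of 11 reads. At equal list length chromosome 19 again had the lowest shares, with 25.5% lost (21.8 to 29.3) and 19.5% new (16.1 to 23.3). The lost share was then highest on chromosome 18 (42.1%, 33.9 to 50.5) and the new share on chromosome 13 (40.4%, 34.4 to 46.6).

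**Figure D5:**
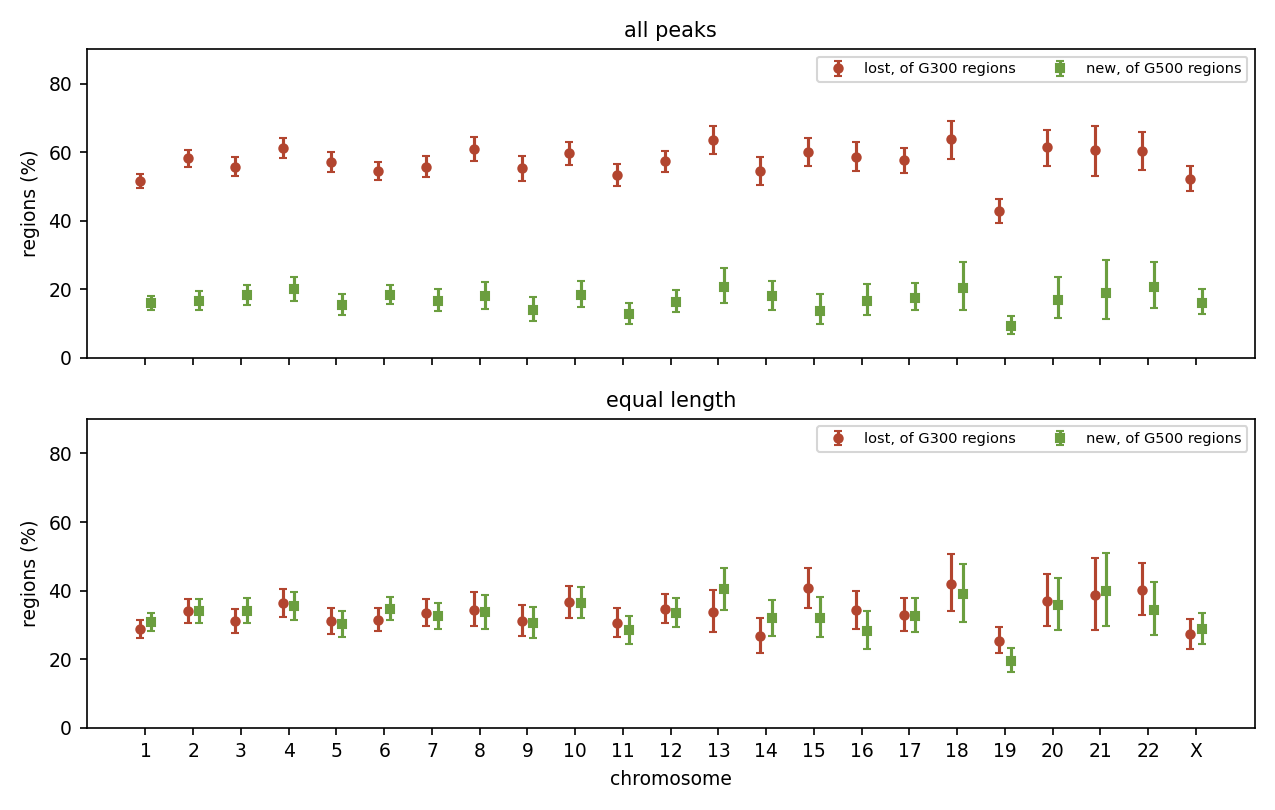
Lost regions as a share of G300 regions (red circles) and new regions as a share of G500 regions (green squares) by chromosome (%, with 95% Clopper-Pearson intervals), with all peaks above and at equal list length below. With all peaks the lost share lies between 42.8% on chromosome 19 and 63.7% on chromosome 18; at equal length the intervals of lost and new shares overlap on every chromosome plotted, and chromosome 19 is lowest for both.

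On chromosome 6, the stretch from 26 to 28 Mb holds the large histone gene cluster and many tRNA genes, and that from 29 to 34 Mb holds the major histocompatibility region. In the first, 31 lost, 64 kept and 2 new regions were found, so 32.6% of 95 G300 regions were lost (23.4 to 43.0). Its G300 regions had a median of 17 reads. At equal list length 17.6% were lost (9.46 to 28.8) and 15.2% of 66 G500 regions were new (7.51 to 26.1). In the second, 39 were lost, 44 kept and 6 new, so 47.0% of 83 G300 regions were lost (35.9 to 58.3), at a median of 13 reads. The lost share of the histone stretch, 32.6%, was below the 56.2% over all G300 regions, at a higher median of reads, and the part of those reads in the difference was not tested.

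The loss at this step can be set beside other pairs of lists. With each list cut to 8102 peaks, the length of the shortest, kept regions were 53.0% of all regions of G300 and G500, the ninth highest of 28 pairs. The range over all pairs was 44.8% to 59.5%. Of the 7 pairs with G500, the one with G300 was highest, closely followed by those with G20 (51.8%), FT (51.3%) and G100 (50.9%). The pairs of G500 with G1000, G200 and G700 were at 48.4%, 47.2% and 45.5%. The pair of G300 and G1000 was at 53.2%, close to that of G300 and G500. These pairs share lists, so their values are a description and not independent of each other.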

How the data were processed

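The analysis used 1 MACS2 peak list per library, for 8 libraries of 293T open chromatin. Bowtie2 2.2.6, MACS2 2.2.1 and HOMER, and the builds hg19 and mm10, are named per the submitters' processing notes, without roles. Scaffold names in the files are those of hg19, and positions are given in it, counted from 1. How reads were filtered or shifted, and the settings of the peak caller, are not given in the sources used. For each peak the authors deposited a whole-number score, the fold over the local background as a ratio, and the −log10 p and −log10 q. The score was the −log10 q multiplied by 10 and cut to a whole number, in all but 2 peaks of G200. Peaks of the G200 list are named G50_200 in its file, and that list is used here by its label. Peak numbers run without gaps in each of the 8 lists.

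Reads at a summit were recovered as the whole number, up to 3000, at which the fold, (reads + 1)/(background + 1), and the Poisson −log10 p both hold, with a tolerance of 0.001. A single number was found for 99.8% of the G300 and 99.2% of the G500 peaks, and some match for 0.522% and 0.568% after the p-values were shuffled. They may be fragments. The lowest background of a list over its extension length gave the background per kb, comparable only if settings were alike. The steps were tested on simulated data.

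Regions were joined at 1 bp. Intervals of shares are 95% Clopper-Pearson intervals, and intervals of read ratios come from the same method on the 2 read numbers. Ordinary regions lie over 1 Mb from the longest peak-free stretch and 20 kb from chromosome ends. The upper end of a chromosome was taken as the end of its last peak in any list, not the end of the assembly. Named regions are the 10 lost and 10 new of highest −log10 q and the 5 kept with the highest and lowest scaled ratio at 20 or more reads. Ties were broken by file order. The planned promoter, gene list and motif comparisons were not run, because the gene tables used here are GRCh38.p14 and the peaks hg19. The 6p22 and 6p21 stretches were set from general knowledge of hg19. The comparison, members and lists were chosen with earlier results of these data known. Python 3.11.15, numpy 2.4.6, scipy 1.17.1 and pandas 2.3.3 were used.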

Additional observations from a re-analysis of the deposited data

How the results depend on the processing

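The list lengths set the excess of lost over new regions, and the equal length removes it by construction, with 3355 lost, 7028 kept and 3330 new. Requiring an overlap of at least 50% of both peaks gave 3146 new regions, and summits within 100 bp gave 4835 kept and 5549 new, so the majority of G500 regions was then unshared. Requiring a −log10 q of at least 5 gave 6529 lost, 4821 kept and 542 new, and the lost share was then 57.5%. Scaling G300 to the background of G500, chosen after the data were seen, gave 7838 lost regions, or 48.7% of the G300 regions left. At equal list length, cutting both lists to 5192 peaks gave 1617 lost, 3574 kept and 1614 new, and the kept share was 68.8% beside 67.7%. With reads scaled to the genome background, 308 kept regions were at least 2-fold higher in G500 and 42 lower. A threshold of 1.5-fold gave 982 and 607, and scaling to ordinary kept regions of 60 or more reads, also added later, gave 45 lower. With 1 library a wash, leaving out a replicate was not possible. No paired analysis was possible because each wash had 1 library. The alternatives on promoters and gene lists were not run. Of G300 regions with 8 to 9 reads, 19.3% were called in G500, and the part of depth in this was not tested.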

Other observations

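Of regions called in the 7 other lists, G500 missed 460 of 4701 (9.79%) and G300 missed 23 of 4264 (0.539%). The same count was 448 for G1000, 1011 for G700, 200 for G200, 145 for G100, 23 for G20 and 10 for FT, so G500 and G1000 were alike in it. Among the lost regions, 69 had over 30 reads in G300. Ordinary sequence held 46 of these, the sides of the longest peak-free stretches 11, and scaffolds, random sequences or Y 12. Of all G300 regions, 19276 were ordinary, 286 lay beside those stretches, 112 on other scaffolds, random sequences or Y, and 15 on gl000220. The lost shares of these groups over all reads were 56.4%, 50.3%, 42.0% and 20%, in the same order. All 6 other lists called 22 of the 69. Of the new regions, 7 had over 30 reads in G500, and 1 of them was called in all 6.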
